A study of Rattus norvegicus with 2 samples.

Results

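The miR-30 family consists of closely related microRNAs (miRNAs) with a common 5′ end. On the rat array used here it was represented by 5 of 350 miRNAs, miR-30a, miR-30b, miR-30c, miR-30d and miR-30e, taken as every probe named for miR-30 with a letter from a to e and not for a passenger strand. The family had 10 of the 938 miRNA probes, 2 per member, each printed as 10 spots. The data were 1 array labelled as squamous cell carcinoma of the tongue and 1 array labelled as normal tongue, both from male Sprague-Dawley rats. Per the labels, rats aged 6 to 7 weeks at the start received the carcinogen 4NQO at 0.02 g/l (20 rats) or distilled water (20 rats), and tissue was taken at the end of week 36. RNA was isolated from 7 tumours and 7 normal tongue samples, and the sources used here do not say whether an array held RNA of 1 animal or of a pool.

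A miRNA guides Argonaute proteins to messenger RNAs through its seed, the bases 2 to 8 from its 5′ end, so that miRNAs with the same seed can act on overlapping sets of targets. The miR-30 family is expressed in many tissues, with high levels in heart, skeletal muscle and kidney. Known targets include the mRNAs of Snai1, a transcription factor that represses E-cadherin, and of connective tissue growth factor. The tongue is mostly striated muscle beneath a squamous epithelium, and the arrays measured whole tissue, in which fewer cells of a type and less RNA per cell cannot be told apart.

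The mature sequences of the 3 members that RefSeq lists in the table used here (GRCr8) are shown with the seed in capitals, since the seed defines the family and the lower-case part is what the probes distinguish. They are followed by miR-384-5p, the 1 other miRNA of the array found with the same seed, and by the passenger strand of the miR-30a hairpin, named miR-30a* on the array, which has a different seed.
miR-30a-5p: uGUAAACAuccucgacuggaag
miR-30e-5p: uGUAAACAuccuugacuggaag
miR-30c-5p: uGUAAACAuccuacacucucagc
miR-384-5p: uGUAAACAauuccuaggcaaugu
miR-30a-3p: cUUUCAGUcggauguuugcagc
miR-30a-5p and miR-30e-5p differ by the substitution C13U, counted from the 5′ end with the base of miR-30a first, at 1 of 22 bases. miR-30a-5p and miR-30c-5p differ at 5 of 22 aligned bases. In GRCr8, miR-30a-5p lies at chr9:33233946-33233967 on the plus strand and miR-30e-5p at chr5:139637504-139637525 on the minus strand. miR-30c-5p is encoded by 2 genes, Mir30c2 at chr9:33253695-33253717 on the plus strand and Mir30c1 at chr5:139634505-139634527 on the minus strand, and its probes cannot tell them apart.

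The genes form 3 pairs in the RefSeq gene table, each without another miRNA gene between its members: Mir30a with Mir30c2, Mir30b with Mir30d, and Mir30e with Mir30c1. Mir30e and Mir30c1 lie within the bounds of Nfyc, which encodes a subunit of the transcription factor NF-Y. Mir30b and Mir30d lie within an uncharacterised locus, LOC102551574.

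The arrays also differed in brightness as a whole. The tumour-labelled array detected 104 miRNAs and the normal-labelled array 88, with 85 measured on both. The 75th percentiles used for scaling differed by a log2 ratio of 0.92 (labelled tumour over labelled normal), which any unscaled value includes. The median log2 ratio of the 85 miRNAs after scaling was -0.46. The miRNAs miR-21 (log2 ratio -3.26) and miR-31 (-3.93), both often raised in human oral carcinoma, were lower on the tumour-labelled array. miR-1, a miRNA of skeletal muscle, was 13.2-fold higher there. Whether the labels were exchanged could not be checked here. If they were, every ratio and rank given below would turn round, and each array is named by its label for that reason.

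All 5 members were brighter on the tumour-labelled array after scaling, and under all but 2 of 20 alternative settings. miR-30d was at -0.15 on the log2 scale with normexp background correction and an offset of 50. miR-30b was at -0.058 with undetected probes included at each array's floor. In the main setting, miR-30e, miR-30a and miR-30c were 3.88-fold, 3.85-fold and 2.81-fold higher. miR-30b and miR-30d, from a gene pair of their own, were 1.57-fold and 1.40-fold higher. Thus 3 of 5 members were at least 2-fold higher, against 11 of the 85 measured miRNAs (12.9%, these 3 included). No member was at least 2-fold lower, against 19 of the 85 (22.4%). A log2 ratio above 0 was found in 5 of 5 members and in 32 of the 85 (37.6%). The family's median log2 ratio was 1.49, which lay 1.95 above the median of all measured miRNAs.

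**Figure D1:**
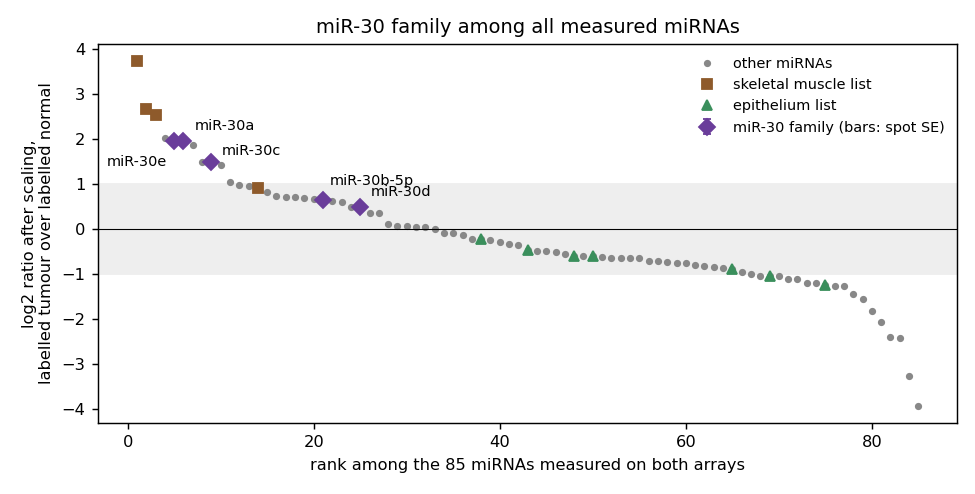
Log2 ratio after scaling (labelled tumour over labelled normal, vertical axis) of the 85 miRNAs measured on both arrays, ranked from the highest to the lowest; diamonds are the miR-30 family with the spot SE as bars, squares the skeletal muscle list, triangles the epithelium list, and the grey band is under 2-fold. miR-30e, miR-30a and miR-30c rank 5, 6 and 9 of 85, and miR-30b and miR-30d rank 21 and 25.

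The ratio of miR-30a rests on the longer of its probes. The 10 spots of its 16-base probe ran from 422 to 451 intensity units with a median of 432 on the tumour-labelled array, against 49.4 to 69.0 with a median of 59.7 on the normal-labelled array. The scaled spots of the arrays did not overlap. After scaling, the log2 ratio was 1.94 (spot SE 0.05). Its 15-base probe was detected on the tumour-labelled array alone, where its mean was 143 ± 6.63 intensity units (spot SD), against 15.9 ± 2.80 on the normal-labelled array. There 3 of its 9 spots were well above background, so only a bound can be given, at least 4.15-fold higher after scaling.

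miR-30e, encoded within Nfyc, gave a ratio close to that of miR-30a from a probe of nearly the same sequence. Its 17-base probe ran from 211 to 246 intensity units with a median of 233 on the tumour-labelled array, against 25.9 to 34.6 with a median of 32.0 on the normal-labelled array. Again no scaled spot of either array fell in the range of the other. The log2 ratio after scaling was 1.96 (spot SE 0.04). The 16-base probe had a mean of 60.5 ± 2.77 on the tumour-labelled array and 6.58 ± 4.42 on the normal-labelled array, where none of its spots was well above background, and was at least 1.75-fold higher after scaling.

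miR-30c, the member with 2 genes, was measured by both of its probes. The 18-base probe ran from 630 to 678 intensity units with a median of 653 on the tumour-labelled array, against 108 to 122 with a median of 115 on the normal-labelled array. The 17-base probe ran from 106 to 116 with a median of 110 on the tumour-labelled array, against 12.8 to 29.96 with a median of 23.1 on the normal-labelled array. Neither probe had overlapping spots after scaling. The probes gave log2 ratios of 1.58 (spot SE 0.02) and 1.39 (spot SE 0.11), and their mean was 1.49 (spot SE 0.06).

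miR-30b and miR-30d, from neighbouring genes, had smaller ratios. The 17-base probe of miR-30b ran from 125 to 144 intensity units with a median of 134 on the tumour-labelled array, against 39.9 to 53.9 with a median of 45.7 on the normal-labelled array. These spots did not overlap after scaling. Its log2 ratio was 0.65 after scaling (spot SE 0.05), under 2-fold. Its 16-base probe, at 20.3 ± 3.92 on the tumour-labelled array and 6.02 ± 2.83 on the normal-labelled array, was near the dimmest detected signal of 18.3 on the tumour-labelled array and gives no fold.

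For miR-30d, the 14-base probe ran from 84.5 to 102 intensity units with a median of 92.8 on the tumour-labelled array, against 25.4 to 49.5 with a median of 33.0 on the normal-labelled array. The 13-base probe ran from 66.3 to 80.1 with a median of 73.2 on the tumour-labelled array, against 23.0 to 32.1 with a median of 28.2 on the normal-labelled array. After scaling, the spots of the 14-base probe overlapped between the arrays and those of the 13-base probe did not. The probes' log2 ratios were 0.51 (spot SE 0.11) and 0.46 (spot SE 0.06), with a mean of 0.49 (spot SE 0.06). Counting all members, scaled spots lay wholly higher on the tumour-labelled array for 6 of the 7 member probes detected on both arrays, against 46 of all 140 such probes (32.9%).

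**Figure D2:**
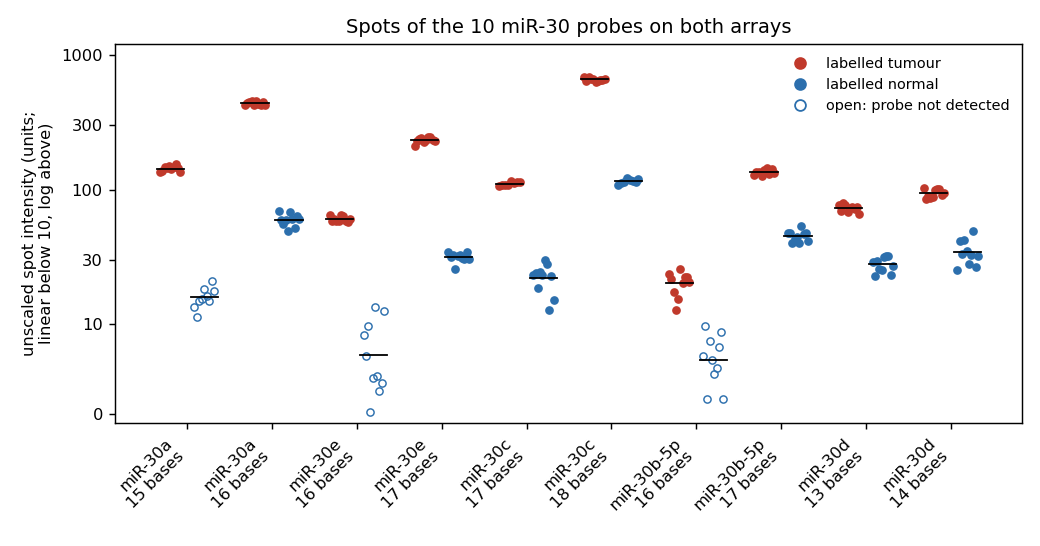
Unscaled intensity of every spot kept (vertical axis, linear below 10 and logarithmic above) for the 10 miR-30 probes, with the tumour-labelled array to the left of the normal-labelled array in each pair; horizontal lines are means, and open circles mark a probe that was not detected on that array. All 10 probes were detected on the tumour-labelled array and 7 on the normal-labelled array. Of all 938 miRNA probes, 175 were detected on the tumour-labelled array and 149 on the normal-labelled array. The gap between the arrays is wider for miR-30a, miR-30e and miR-30c than for miR-30b and miR-30d.

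The size of these ratios depended on the scaling and on the background correction. Without scaling, log2 ratios ran from 1.41 for miR-30d to 2.88 for miR-30e, and all 5 members were at least 2-fold higher, against 28 of 85 miRNAs (32.9%). With normexp background correction and its offset of 50 intensity units, 1 member, miR-30a at 1.23, was at least 2-fold higher. So were 3 of the 85 miRNAs, this member included. miR-30e was at 0.86, miR-30c at 0.75, miR-30b at 0.08 and miR-30d at -0.15. On the normal-labelled array the member probes detected had means between 22.2 and 115 intensity units, so an offset of that size is comparable to their signal. With normexp and an offset of 0, the main setting's 3 members were at least 2-fold higher, against 10 of the 85 miRNAs. The family's median was then 1.26.

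Differences between members do not depend on a common scaling factor, which cancels, but they do depend on the background correction and the filter on dim probes. Within the pair Mir30a and Mir30c2, miR-30a lay 0.46 above miR-30c on the log2 scale (spot SE of the difference 0.08). Within the pair Mir30e and Mir30c1, miR-30e lay 0.47 above miR-30c (spot SE 0.07), but 0.12 above it with normexp and an offset of 50, and at -0.11 with undetected probes included. Within the pair Mir30b and Mir30d, miR-30d minus miR-30b was -0.16 (spot SE 0.08), which turned to 0.55 with undetected probes included. In that setting, member probes undetected on the normal-labelled array entered at its floor, 0.066 after scaling, not at their own lower signal. The floor of the tumour-labelled array was 0.035. miR-30e, which is no neighbour of miR-30a, lay 0.014 above it (spot SE 0.06). The members of the Mir30b and Mir30d pair stood lower than miR-30a, miR-30c and miR-30e: miR-30a lay 1.29 above miR-30b (spot SE 0.07) and 1.45 above miR-30d (spot SE 0.08), and miR-30c lay 0.84 above miR-30b (spot SE 0.07). miR-30a, miR-30c and miR-30e all lay above miR-30b and miR-30d in each of the 20 alternative settings, with a gap between the groups of 0.66 to 0.97. Alternatives that change only a common scaling factor left the gap at 0.84 by design, so they do not bear on the grouping. The median over probes did the same, since each member has 2 probes. The deposited value table repeated the total gene signal, with the same gap of 0.88. This grouping of members was described after their values were seen.

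Similar probes did not always give similar ratios. The array's longer probes for miR-30a and miR-30e are shown with the base that differs in capitals, because they are among the most alike and their measured ratios are the closest.
miR-30a probe: cttccagtcGaggatg
miR-30e probe: cttccagtcAaggatgt
They differ at 1 of 16 aligned bases, so RNA of either member might also bind the probes of the other. The miR-30a probe pairs with bases 7 to 22 of the mature miRNA and the miR-30e probe with bases 6 to 22, so neither covers the whole seed. The longer probes of miR-30a and miR-30d also differ at 1 base, of 14 aligned, yet the ratios of these members differed 2.74-fold. The longer probes of miR-30b and miR-30d differ at 8 of 14 aligned bases, and the ratios of these members, with miR-30d averaged over both of its probes, differed 1.12-fold. Whether any member's signal came in part from another member, and how much, was not tested.

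The passenger strands, the opposite arms of the hairpins, have sequences and probes of their own. Of 6 passenger strands, miR-30a* and miR-30e* were detected on the tumour-labelled array alone, as were 19 of all 350 miRNAs (5.43%), and the other 4 were detected on neither array. The 17-base probe of miR-30a* had a mean of 68.9 ± 5.02 intensity units on the tumour-labelled array and 8.01 ± 3.46 on the normal-labelled array. Its 16-base probe had 42.0 ± 1.46 and 2.70 ± 2.11, in the same order. The 18-base probe of miR-30e* had a mean of 72.6 ± 3.58 on the tumour-labelled array and 7.78 ± 3.08 on the normal-labelled array. Its 17-base probe had 20.4 ± 2.91 and 0.18 ± 2.64, in the same order. That probe was near the dimmest detected signal of 18.3 on the tumour-labelled array and gives no fold by itself. Over their probes these strands were at least 1.56-fold and 1.11-fold higher after scaling, and no fold remained with normexp and its offset of 50. The 4 undetected strands are those of miR-30b, miR-30c and miR-30d. Among their probes the highest mean was 11.3 ± 0.97 intensity units, for the 19-base probe of miR-30c-2* on the tumour-labelled array, against -0.20 ± 2.21 on the normal-labelled array. None of its spots was well above background on either array. After scaling, both arms of the miR-30a and miR-30e hairpins were brighter on the tumour-labelled array, with bounds only for the passenger arm.

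**Figure D3:**
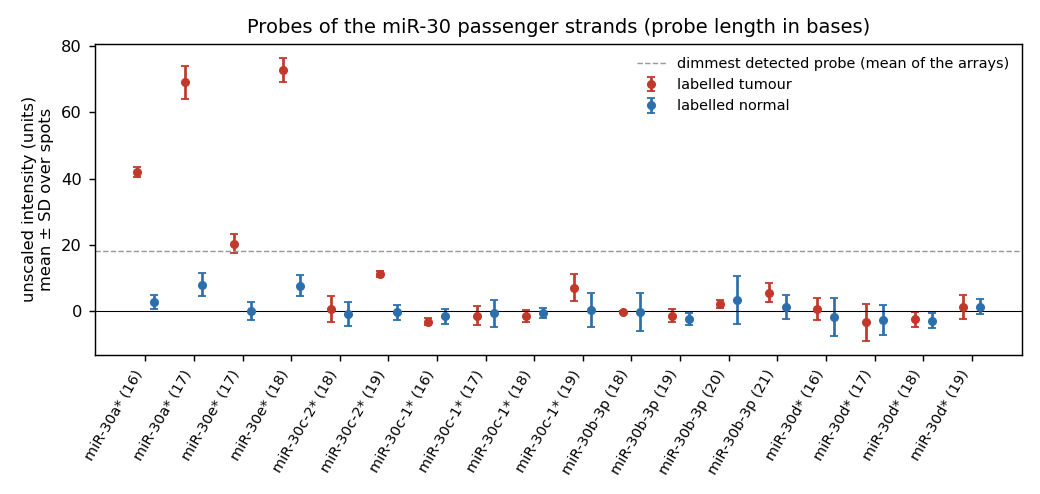
Mean unscaled intensity with the spot SD (vertical axis) of the 18 probes of the 6 miR-30 passenger strands. The tumour-labelled array is to the left of the normal-labelled array. The dashed line is the mean of the dimmest detected signals of the arrays, 18.3 (labelled tumour) and 18.2 (labelled normal). The 4 probes above the line all belong to miR-30a* and miR-30e* on the tumour-labelled array.

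miR-384-5p, which has the family's seed but a different 3′ part, was detected on neither array. Its probe means were -0.86 and -1.55 intensity units on the tumour-labelled array and -1.12 and -1.52 on the normal-labelled array, and none of its spots was well above background. The negative control spots averaged 0.61 ± 3.04 on the tumour-labelled array and 1.67 ± 3.02 on the normal-labelled array (SD over spots).

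As a share of the summed intensity of all miRNAs, which needs no scaling factor, the 5 members gave 2.78% on the tumour-labelled array and 0.957% on the normal-labelled array, a ratio of 2.90. With the skeletal muscle list left out of the sum, the shares were 3.87% on the tumour-labelled array and 1.001% on the normal-labelled array. The ratio was then 3.86. This choice was made after the values were seen, and it widens the ratio. That list gave 28.2% of the intensity on the tumour-labelled array and 4.41% on the normal-labelled array. No miRNA lower on the tumour-labelled array, such as miR-21 (log2 ratio -3.26), was left out in turn. Brightness depends on the probe, so these are shares of signal and not of molecules.

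The 5 other miRNAs with log2 ratios nearest to the family's median of 1.49, measured as the absolute difference over the 2 arrays, were miR-10b (1.49), which is encoded in a Hox cluster, the lymphocyte miRNA miR-150 (1.43), miR-378 (1.85), the erythroid miRNA miR-451 (1.04) and miR-26b (0.96). With 1 ratio per miRNA this likeness says only that the sizes are close.

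Marker miRNAs of muscle were also higher on the tumour-labelled array. Of the 7 miRNAs of the skeletal muscle list 6 were on the array and 4 were measured on both arrays. All 4 had log2 ratios above 0, from 0.91 for miR-206, a miRNA of skeletal muscle, to 3.72 for miR-1, found in heart and skeletal muscle, with miR-133a at 2.53 and miR-133b at 2.66. Neither array detected miR-208 or miR-499. The list's summed scaled level was 18.9 on the tumour-labelled array and 3.03 on the normal-labelled array. The 7 miRNAs of the epithelium list ran from -1.26 for miR-141 to -0.24 for miR-203, and their summed scaled level was 3.93 on the tumour-labelled array and 6.69 on the normal-labelled array. The part of muscle content in the family's ratios was not tested.

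**Figure D4:**
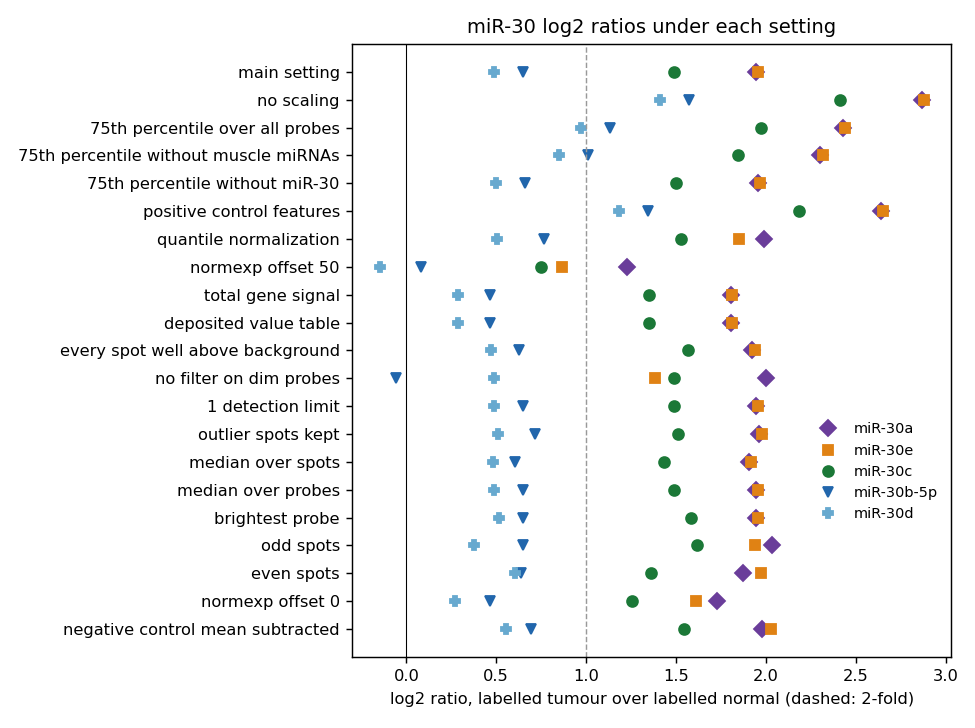
Log2 ratio (labelled tumour over labelled normal, horizontal axis) of the 5 members under the main setting and each of 20 alternatives (rows); the dashed line is 2-fold. miR-30a stays beyond 2-fold in every row, miR-30c and miR-30e in all but 1, and the gap to miR-30b and miR-30d is kept throughout. A change of the common scaling factor alone cannot alter that gap.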

How the data were processed

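Agilent 1-colour rat miRNA arrays, 1 per group, carried Cy3-labelled RNA and were read in the same scan. Per the file headers, the authors extracted the deposited spot intensity values with Agilent Feature Extraction, version 10.5.1.1, which subtracted background and removed spatial trends but did not scale arrays to each other. The deposited value table, used as an alternative, held the total gene signal that the software gives: all 208 values above 1 on the tumour-labelled array and all 201 on the normal-labelled array matched it to a relative tolerance of 0.0001. It is thus linear intensity, neither centred nor a ratio, with column medians of 1.70 and 1.32. The labelling kit named in the labels' protocols is one for messenger RNA.

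Spots marked as outliers by the software were left out, and the other spots of a probe were averaged. Detection of a probe required that over 50% of its spots be well above background. Values were scaled by the array's 75th percentile, taken over the 140 probes that both arrays detected, floored at the dimmest detected probe and log2-transformed. Ratios of a miRNA's probes detected on both arrays were averaged. A ratio of 2-fold or more is called by size. No test between groups was possible with 1 array per group, and every error is a spot SD or SE within an array, which leaves out differences between animals. The steps ran in Python 3.11.15 and in limma 3.58.1 for normexp background correction. The main setting's averaging, over 50% detection rule and ratios were tested on simulated arrays with planted changes. Both simulated arrays were made from the normal-labelled array. That test removed any common shift between the arrays, so it did not test the scaling. It also did not cover normexp, the removal of outlier spots, the alternatives or the software's well-above-background mark, which a fixed intensity cut replaced.

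The members, the marker lists and the 18 alternatives were chosen with earlier results of these data known, and 2 alternatives were added after seeing the data. Named miRNAs are the family members, their passenger strands, array miRNAs with the family's seed, the 5 other miRNAs nearest to the family's median ratio, and the marker lists. miR-31 and miR-21 are named in addition, after their values were seen. Sequences and gene neighbours come from RefSeq tables of assembly GRCr8, while the arrays' grid names build rn4.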

Additional observations from a re-analysis of the deposited data

How the results depend on the processing

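Of 100 member values over the 20 alternatives, 90 kept their direction and their side of 2-fold. Not all of these values are separate checks. The median over a member's 2 probes equals their mean by design, and the deposited value table repeats the total gene signal. With 1 detection limit, all 5 members kept the values of the main setting. miR-30a was at least 2-fold higher in all 20, with log2 ratios of 1.23 to 2.87, and miR-30c and miR-30e in 19 each. The 3 members called at least 2-fold higher became 5 without scaling and 5 with scaling on the positive control features, while with normexp and an offset of 50 the count was 1, the family's median 0.75, miR-30d -0.15, miR-30e minus miR-30c 0.12, and the bounds of miR-30a* and miR-30e* -0.23 and -0.38, so no fold. With normexp and an offset of 0, chosen after seeing the data, the bound of miR-30e* was -0.045. With no filter on dim probes, miR-30b was -0.058, miR-30d minus miR-30b 0.55 and miR-30e minus miR-30c -0.11, since undetected probes then enter at each array's floor. Over all miRNAs the count at least 2-fold higher was 11 in the main setting, 28 without scaling, 27 on control features, 23 with the percentile over all probes, 21 without muscle miRNAs in it, and 3 with normexp and its offset of 50. The median of all miRNAs moved by 0.92, 0.69, 0.48 and 0.36 in the first 4 of these alternatives, by 0.10 with quantile normalization, by 0.23 with 1 detection limit, by -0.18 with the total gene signal or the deposited value table and by -0.45 with no filter. Relative to that median the family's median lay between 1.28 and 2.30. The upper end came with no filter on dim probes, where the median covers all 350 miRNAs, with undetected ones at each array's floor. Among the other alternatives the highest was 2.10, with only odd-numbered spots used. The number of arrays limits precision, and on the normal-labelled array 3 of 10 member probes were not detected (149 of all 938 probes were detected there). No paired analysis was possible because each group has 1 array.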
